A study of Mus musculus with 24 samples.

Results

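The hematopoietic cytokine receptors examined here are 9 genes, Kit, Flt3, Csf1r, Csf3r, Il3ra, Csf2ra, Csf2rb, Il6ra and Il7r. They were taken by gene symbol from the 20867 genes of the deposited tables, with no cutoff on a measured value but with earlier results of these data known. All 9 had a row in every library. The study compared preleukemic mouse cells with and without the terminal uridylyl transferases TUT4 and TUT7, enzymes that add uridines to RNA 3′ ends, and used SLAM-seq to follow how fast mRNAs decay. In SLAM-seq, 4-thiouridine (4SU) is fed to cells, alkylation of the RNA makes the incorporated 4SU read as cytosine, and the share of thymine positions read as cytosine (the T-to-C conversion rate) falls as labeled RNA is lost. There were 24 libraries in 8 groups of 3, from control and Tut4/7 conditional double-knockout (cDKO) cells collected 0, 60, 180 and 540 min after a 12 h pulse of 2.9 µM 4SU.

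Both genotypes were c-Kit+ fetal liver cells transformed with retroviruses carrying Meis1 and Hoxa9, so all groups share these oncogenes and the floxed Tut4 and Tut7 alleles. The cDKO cells also carried Vav-iCre, a Cre driven by a promoter active throughout the blood system, and the controls were Cre-negative littermates. The culture medium contained the ligands of Kit (stem cell factor at 40 ng/ml), of Il6ra (IL-6 at 20 ng/ml) and of Il3ra (IL-3, also at 20 ng/ml). The medium in which the transformed cells were first grown and replated also held GM-CSF, the ligand of Csf2ra. The methods describe biological triplicates, and nothing in the sources used here says whether the 4 libraries that share a replicate number came from the same embryo or culture. The p-values below therefore measure the spread between these libraries.

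Cytokine receptors decide which growth factors a progenitor can answer. Kit, Flt3 and Csf1r are receptor tyrosine kinases that dimerize around their ligands, whereas the others belong to the cytokine receptor family, lack a kinase of their own and signal through bound JAK kinases to STAT factors. Il3ra and Csf2ra bind IL-3 and GM-CSF and share the signaling chain Csf2rb, Il6ra presents IL-6 to Il6st, Il7r pairs with Il2rg or, for thymic stromal lymphopoietin, with Crlf2, and Csf3r binds G-CSF as a homodimer.

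Libraries held 4380235 to 7041311 reads in 3′ untranslated region (UTR) intervals, and values are given below as CPM, each library's count scaled to a common total of such reads. Counts in the Tut4 and Tut7 intervals were lower in every cDKO library (17.8 to 40.0 and 16.7 to 33.3 CPM) than in any control library (68.1 to 105 and 34.6 to 66.1 CPM). Where the deleted exons lie relative to these intervals is not given in the sources used here, so the 3′ reads check the labels only in part. Library-wide, 1.62 to 1.67% of covered thymines were converted in control libraries at 0 min, whereas cDKO libraries ranged from 0.542 to 0.845%, and cDKO replicate 3 had the lowest cDKO rate at each time. Libraries of the same number deviated together within cDKO (r between 0.16 and 0.663 over 18 pairs of libraries) and hardly within control (r = -0.0437 to 0.124). For short, the 3 cDKO numbers are called cultures below, which the labels do not state. The Meis1 interval had no read in any control library and 0 to 5.26 CPM in cDKO libraries. Whether RNA from the Meis1 retrovirus carries this 3′ UTR is not given in the sources used here.

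The loss of TUT4/7 went with 3 patterns among the receptors. Csf1r and Il6ra were far lower in cDKO cells, Csf2ra was moderately lower, and Csf2rb was higher, each passing the test at 3 or 4 of the 4 times. Kit, Csf3r and Il3ra passed the test at a single time each, Flt3 at none, and Il7r could not be tested. At 0 min, 4 of the 8 receptors tested passed an adjusted p of 0.05 in edgeR's quasi-likelihood test, where 13.4% of all 10186 genes tested did. Of these, 1 was higher (6.72% of all genes) and 3 were lower (6.64%). The counts were 4 of 8 at 60 min (20.2% of all genes), 6 of 8 at 180 min (18.9%) and 4 of 8 at 540 min (19.2%). Csf1r, Il6ra and Csf2rb passed at all 4 times in 1 direction, as did 8.31% of the genes tested at every time. The 3 control and 3 cDKO libraries did not overlap for 7 of 8 receptors at 0 min (33.4% of all genes), 4 at 60 min (38.4%), 6 at 180 min (37.3%) and 5 at 540 min (37.1%). At 0 min the receptors' median log2 change was -0.68, against 0.01 over all genes tested.

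**Figure D1:**
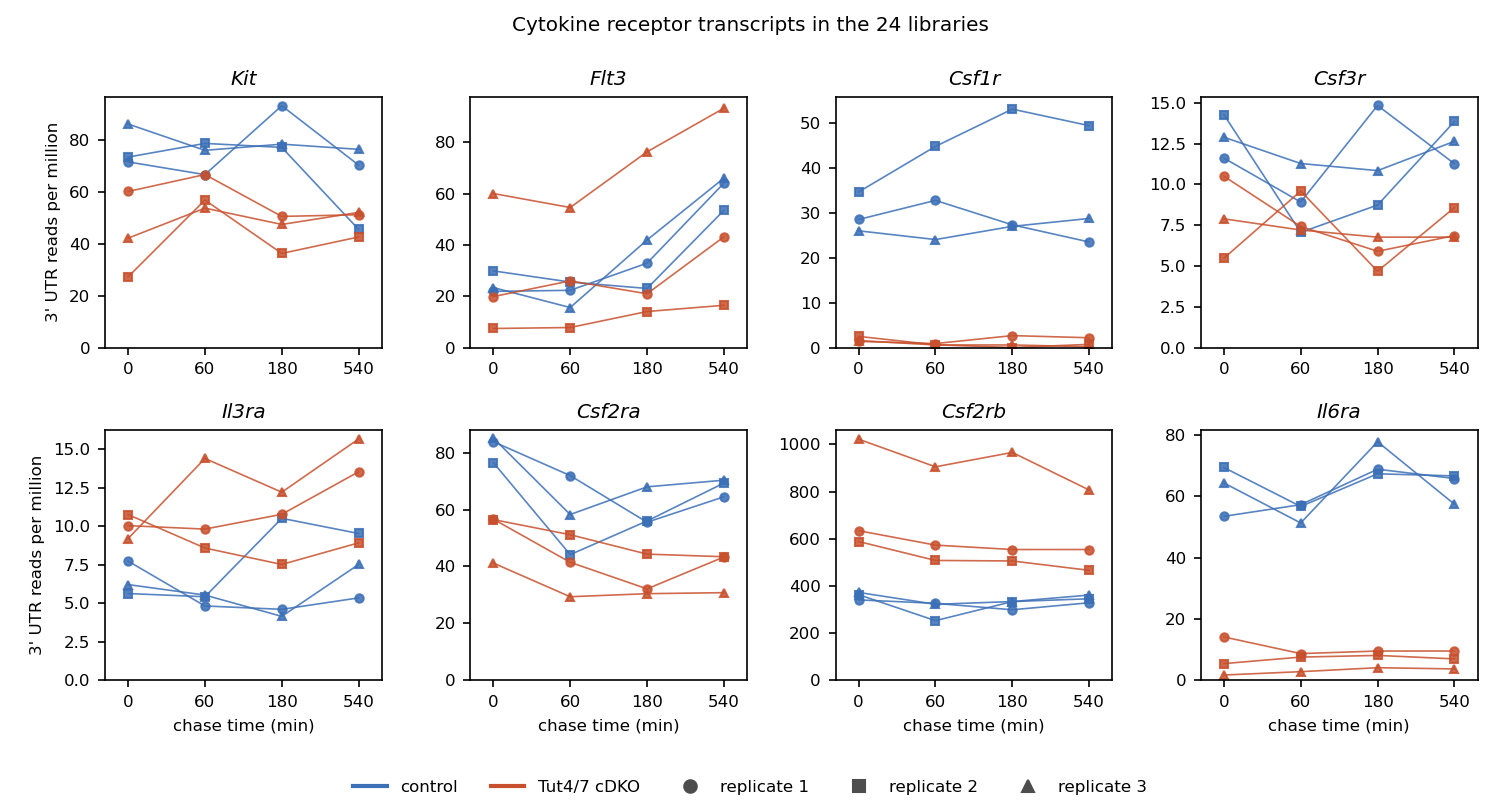
CPM in the 3′ UTR interval of 8 receptors (y axes from 0) against chase time (x axes, 0, 60, 180 and 540 min, evenly spaced and not to scale). Each point is 1 library, blue for control and red for cDKO, with a symbol for the replicate number, and lines join libraries of the same number and genotype. The red points of Csf1r and Il6ra lie below and those of Csf2rb above all blue points, and cDKO replicate 3 (triangles) is the highest for Flt3 and Csf2rb and the lowest for Il6ra.

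Csf1r, the receptor of M-CSF that drives monocyte and macrophage development, was nearly lost. Its 0 min libraries held 28.5, 34.6 and 25.9 CPM in control and 1.37, 2.47 and 1.53 CPM in cDKO. Over the whole chase the 12 control libraries lay between 23.5 and 53.0 CPM and the 12 cDKO libraries between 0 and 2.64 CPM, with 2254 reads in all control and 70 in all cDKO libraries. No cDKO library came near the lowest control library, and cDKO replicate 2 at 180 min had no read at all. The log2 change was -3.98 ± 0.29 (SE) at 0 min, -5.62 ± 0.37 at 60 min, -5.06 ± 0.62 at 180 min and -5.05 ± 0.54 at 540 min (edgeR, n = 3 against 3 at each time, highest adjusted p 3.4e-04). At 0 min 46 of the 10186 genes tested had a lower value. In the control, replicate 2 stood above the other 2 numbers at every time, with a mean of 45.4 CPM against 28.0 and 26.4 CPM.

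Il6ra, which binds IL-6 and hands it to Il6st, was 8.62-fold to 9.79-fold lower by group means. At 0 min it had 53.4, 69.3 and 64.3 CPM in the control libraries. In cDKO libraries it had 14.2, 5.47 and 1.75 CPM at that time. Across the 24 libraries the genotypes did not overlap (51.3 to 77.7 CPM against 1.75 to 14.2 CPM), and within cDKO the 3 cultures kept their order at all times, replicate 1 highest and replicate 3 lowest (means 10.5, 7.05 and 3.12 CPM). The log2 change was -3.13 ± 0.48 (SE) at 0 min and -3.14 to -3.32 at the later times (edgeR, highest adjusted p 0.0033). Il6ra lies on chromosome 3, where 483 genes tested at 0 min had a median log2 change of -0.51, against 0.02 for genes elsewhere. The change of Il6ra was larger than that shift, with 5 of the 483 genes lower still, and the shift's part in it was not tested. The common chain Il6st was itself scarce, at 0.602 to 2.82 CPM in control and 0 to 1.53 CPM in cDKO libraries, and was not tested between genotypes.

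Csf2rb, the chain through which IL-3, GM-CSF and IL-5 receptors signal, moved the other way. It had 341, 363 and 373 CPM in control and 635, 589 and 1023 CPM in cDKO libraries at 0 min. The genotypes did not overlap over the 24 libraries, at 253 to 373 CPM against 467 to 1023 CPM, and cDKO replicate 3 was the highest library at every time. The log2 change was 1.07 ± 0.18 (SE) at 0 min, 1.12 ± 0.19 at 60 min, 1.05 ± 0.20 at 180 min and 0.81 ± 0.17 at 540 min (edgeR, adjusted p 0.0055, 0.0025, 0.0052 and 0.0098), and the 540 min call was lost without control replicate 1 (adjusted p 0.0567). Over all genes tested at any time, 8.49% had 12 control and 12 cDKO libraries that did not overlap, and 3 receptors, Csf1r, Il6ra and Csf2rb, were among them.

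Csf2rb2, a neighboring mouse-specific copy that serves the IL-3 receptor alone, is nearly identical to Csf2rb, and reads could be split between them. Few were ambiguous by the authors' own count, with 107 of 63922 Csf2rb reads and 0 of 4265 Csf2rb2 reads mapping to several places. Csf2rb2 had 17.4, 23.5 and 24.9 CPM in control and 41.8, 18.5 and 90.9 CPM in cDKO libraries at 0 min, where cDKO replicate 2 overlapped the control. Its log2 change was 1.2 ± 0.46 at 0 min (edgeR, adjusted p 0.129) and 1.25 to 1.47 at the later times, where it passed (adjusted p 0.0093 to 0.0123). The cDKO cultures stood in the same order for both chains, with cDKO means of 925, 579 and 518 CPM for Csf2rb and 77.5, 41.2 and 26.7 CPM for Csf2rb2 in replicates 3, 1 and 2.

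The ligand-binding partners of Csf2rb did not move together. Csf2ra, the GM-CSF receptor α chain, had 83.8, 76.5 and 85.1 CPM in control and 56.6, 56.5 and 41.2 CPM in cDKO libraries at 0 min, with no overlap. Its log2 change was -0.65 ± 0.16 at 0 min, -0.54 ± 0.22 at 60 min, -0.77 ± 0.16 at 180 min and -0.80 ± 0.15 at 540 min (edgeR, adjusted p 0.0248, 0.115, 0.0077 and 0.0052). At 60 min 1 control library, replicate 2 with 44.2 CPM, lay below the highest cDKO library at 51.2 CPM. The 0 min call was lost when any 1 control replicate or cDKO replicate 1 was left out (adjusted p 0.0531 to 0.104), and the 60 min change passed without cDKO replicate 2 (-0.74, adjusted p 0.0233).

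Il3ra, the IL-3 receptor α chain, had higher values in cDKO at every time but passed at 60 min alone. It had 4.83, 5.43 and 5.54 CPM in control and 9.82, 8.59 and 14.4 CPM in cDKO libraries at 60 min, a log2 change of 1.03 ± 0.31 (edgeR, adjusted p 0.0377). At the other times the change was 0.63, 0.65 and 0.75 with adjusted p of 0.133 to 0.304. The counted interval is 64 bases long and held 1119 reads in all 24 libraries, and the 60 min call was lost without any 1 control replicate, cDKO replicate 1 or cDKO replicate 3 (adjusted p 0.0705 to 0.132).

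Kit, the stem cell factor receptor by which the cells were first enriched, was lower in cDKO on average at each time. Its 0 min values were 71.4, 73.3 and 86.0 CPM in control and 60.0, 27.2 and 42.1 CPM in cDKO libraries, which did not overlap. The log2 change of -0.83 ± 0.24 missed the threshold at 0 min (edgeR, adjusted p 0.0516), and that of -0.91 ± 0.15 passed at 180 min (adjusted p 0.0022). At 60 and 540 min the genotypes overlapped and the changes were -0.34 and -0.40 (adjusted p 0.0805 and 0.183). The 0 min change passed without cDKO replicate 1 or 2 (-1.13 and -0.60, adjusted p 0.0179 and 0.0222) and with DESeq2 (adjusted p 0.006), and the 540 min change passed without control replicate 2 (-0.58, adjusted p 0.0319). When the counts of libraries with the same number were summed over the chase, an alternative chosen after the data were seen, Kit fell by 0.61 on the log2 scale (adjusted p 0.0111, with 3433 of 11204 genes passing).

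Csf3r, the G-CSF receptor of granulocyte precursors, had 1230 reads in all, at 7.06 to 14.8 CPM in control and 4.68 to 10.5 CPM in cDKO libraries. It passed at 180 min, where control libraries held 14.8, 8.73 and 10.8 CPM and cDKO libraries 5.90, 4.68 and 6.77 CPM, a log2 change of -1.0 ± 0.31 (edgeR, adjusted p 0.0463). That call was lost with DESeq2 (adjusted p 0.0568) and without any library but cDKO replicate 3 (adjusted p 0.0575 to 0.191). With counts summed over the chase in the same way its change was -0.68 (adjusted p 0.0058).

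Il7r, the receptor chain of lymphoid progenitors, had 1 read in the 24 libraries, in control replicate 1 at 60 min. The lymphoid markers were likewise near 0, with a summed level of 0 to 0.387 CPM over 9 genes in control and 0 to 1.06 CPM in cDKO libraries. Cd3e, Cd3g, Cd79a, Rag1 and Dntt had no read in either genotype.

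**Figure D2:**
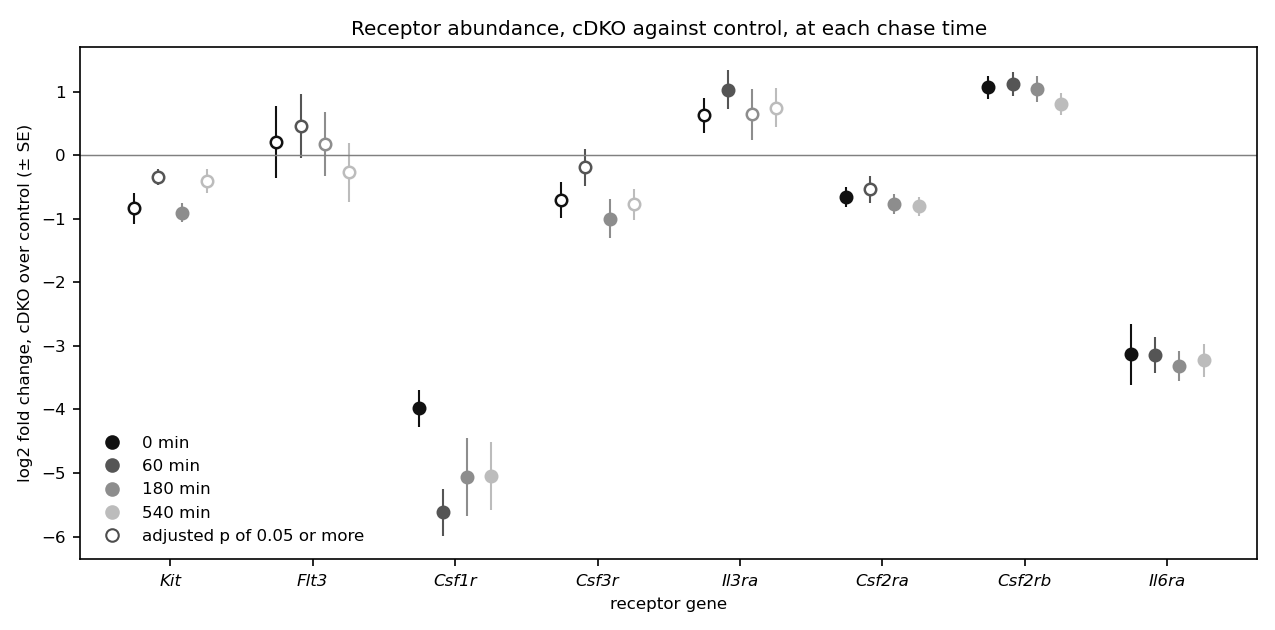
log2 fold change of cDKO over control with its standard error (y axis) for 8 receptors (x axis) at the 4 chase times, dark to light gray from 0 to 540 min, each from 3 against 3 libraries. Filled points passed an adjusted p of 0.05 in edgeR and open points did not: Csf1r, Il6ra and Csf2rb are filled at all 4 times, Csf2ra at 3, and Flt3 at none.

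Flt3, the receptor tyrosine kinase of multipotent and lymphoid-primed progenitors, differed more between cDKO cultures than between genotypes. At 0 min it had 21.9, 29.9 and 23.4 CPM in control and 19.9, 7.41 and 60.0 CPM in cDKO libraries. The cDKO cultures kept this order at all times, at 19.9 to 43.2 CPM in replicate 1, 7.41 to 16.5 CPM in replicate 2 and 54.6 to 93.3 CPM in replicate 3. The control replicates lay within 15.6 to 66.0 CPM, between the outer cDKO cultures at every time. The log2 change was 0.21 ± 0.57 at 0 min, 0.46 ± 0.51 at 60 min, 0.17 ± 0.51 at 180 min and -0.27 ± 0.46 at 540 min (edgeR, adjusted p 0.578 to 0.854). Without cDKO replicate 3 it became -0.92 at 180 min and -1.04 at 540 min, both past the threshold (adjusted p 0.0194 and 0.0328), and without cDKO replicate 2 it was 0.91 at 60 min (adjusted p 0.0374).

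Flt3 rose over the chase in control. From 0 to 540 min it went from 21.9 to 64.1, from 29.9 to 53.5 and from 23.4 to 66.0 CPM in control replicates 1, 2 and 3. In the cDKO cultures it went from 19.9 to 43.2, from 7.41 to 16.5 and from 60.0 to 93.3 CPM. The 3 control libraries at 540 min all lay above the 3 at 0 min, and each cDKO culture was higher at 540 min, by 1.55-fold to 2.22-fold. In control the rise was 1.25 ± 0.14 on the log2 scale (edgeR, adjusted p 1.6e-05), where 16.2% of all genes passed. In cDKO the change was 0.79 ± 0.77 (adjusted p 0.761, with 0.117% of all genes passing), and with the replicate block, fitted because cDKO libraries of the same number correlate, it was 0.90 (adjusted p 0.0316). The difference between the genotypes' changes was -0.46 ± 0.83 (edgeR, adjusted p 1). That test called 0% of genes, against 5.23% at an unadjusted p under 0.05, and DESeq2 called 6 genes, none a receptor.

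Of the other receptors, Csf2ra fell over the chase in control by 0.30 on the log2 scale (edgeR, adjusted p 0.0487). The call was lost with DESeq2 (adjusted p 0.0505) and with 5 of the 6 libraries left out in turn (adjusted p 0.0701 to 0.166). Csf2ra and Csf2rb had a lower value at 540 than at 0 min in 3 of 3 cDKO cultures and for 3 of 3 control numbers, as did Kit and Csf3r in control. The edgeR change of Csf2rb did not pass in either genotype (adjusted p 0.340 and 0.692), nor did that of Csf2ra in cDKO. Csf1r, Il6ra, Csf3r, Il3ra and Kit did not pass in either genotype, and Csf1r was too scarce for the test in cDKO. The medium was renewed without 4SU at time 0, and the sample labels call each chase time a batch. Time after labeling, time in fresh medium and batch therefore cannot be told apart.

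The order of the 8 group means followed genotype for Csf1r, Il6ra, Csf2rb, Csf2ra, Csf3r, Il3ra and Kit, whose 4 control means all lay on one side of the 4 cDKO means. Of 45 neighboring pairs in that order from the same genotype, 6 differed by more than the larger SD, and of 11 pairs from different genotypes 4 did, those at the boundary for Csf1r, Il6ra, Csf2rb and Il3ra. For Il6ra the control means ran from 71.3 ± 5.64 CPM (SD, n = 3) at 180 min to 55.1 ± 3.29 CPM at 60 min, and all 4 cDKO means lay between 6.39 ± 3.12 and 7.28 ± 2.81 CPM. For Kit the gap at the boundary, 64.0 ± 16.3 CPM in control at 540 min against 59.0 ± 6.75 CPM in cDKO at 60 min, was within the SD. Flt3 alone mixed the genotypes, with its highest means in both at 540 min (61.2 ± 6.75 CPM in control and 51.0 ± 39.0 CPM in cDKO).

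Label loss could be followed for fewer members. Rates at 0 min were lower in cDKO than in control for Kit (0.994, 0.959 and 0.849% against 1.53, 2.33 and 1.76%), as they were library-wide. For Csf2rb they were 0.471, 0.593 and 0.371% in cDKO and 1.31, 1.39 and 1.46% in control. Divided by the library-wide rate, the 0 min means (± SD, n = 3) were 1.3 ± 0.23 in cDKO and 1.14 ± 0.23 in control for Kit, 0.653 ± 0.069 and 0.845 ± 0.048 for Csf2rb, 0.960 ± 0.32 and 0.660 ± 0.13 for Csf2ra, and 0.896 ± 0.26 and 0.892 ± 0.064 for Flt3. Control replicate 1 had a value of 0.940 for Kit, below the library average. In cDKO, Csf1r and Il6ra had as few as 108 and 32 covered thymines in a 0 min library, too few to follow decay.

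The test of whether conversion rates fell at a different speed in the genotypes (a genotype by hour term on conversions, with thymine coverage as the offset) covered 5 receptors. None passed, where 0.13% of 9207 genes did. The term, in log2 units per hour with positive values for slower loss in cDKO, was 0.01 ± 0.10 (SE) for Kit, 0.12 ± 0.07 for Flt3, -0.08 ± 0.08 for Csf2ra, 0.09 ± 0.05 for Csf2rb and -0.03 ± 0.10 for Csf3r (edgeR, adjusted p 0.369 to 0.982). Reading the term as loss assumes steady abundance. Flt3 rose by 1.25 on the log2 scale over the chase in control, so its term cannot be read as speed of loss alone. With DESeq2 no receptor passed either, and by unadjusted p none of the 5 was under 0.05, against 17.2% of all genes. Il3ra, Csf1r, Il6ra and Il7r were below the minimum of 100 covered thymines in every library or of 50 conversions in all.

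**Figure D3:**
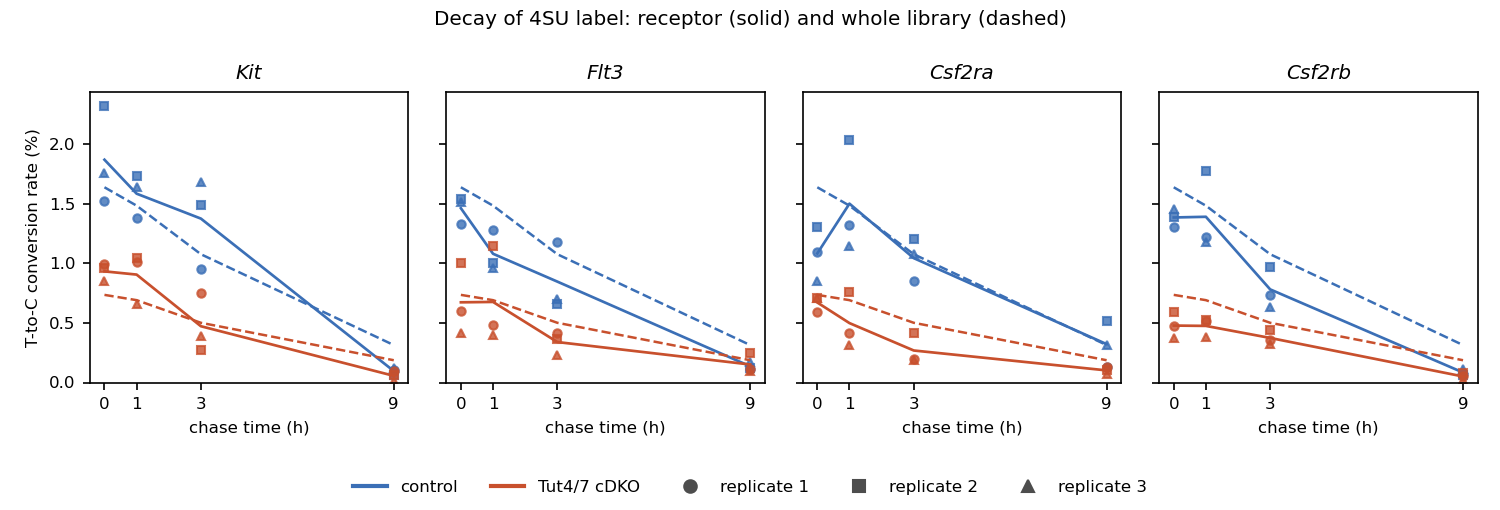
T-to-C conversion rate in percent (y axes, from 0) against chase time in hours (x axes, to scale) for Kit, Flt3, Csf2ra and Csf2rb. Points are single libraries (blue control, red cDKO, symbols for replicate numbers), solid lines join the group means of the gene and dashed lines those of the whole library. All rates start lower in cDKO, and the control rate of Csf2ra rises from 0 to 60 min before it falls.

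Half-lives from a single exponential passed the filters for 3 receptors. Kit had 234 min in control and 192 min in cDKO, with 215, 191 and 312 min in the control replicates and 275, 158 and 149 min in the cDKO replicates, which overlapped (exact permutation test, two-sided, p = 0.4). Csf2rb had 211 and 282 min, with replicates of 202, 273 and 156 min against 290, 266 and 298 min (exact permutation p = 0.2). Csf2ra had 523 and 149 min, with 314, 647 and 804 min in the control and 132, 250 and 69.0 min in the cDKO replicates, which did not overlap (exact permutation p = 0.1, the smallest that 3 against 3 can give, and 0.3 adjusted over the 3 receptors). Over the 3712 genes that passed, the medians were 224 and 251 min and the median log2 ratio 0.19, and 18 genes had a lower ratio than the -1.81 of Csf2ra. That median depended on the background: it was 0.08 with a floor of 0.0723% subtracted and 0.05 with 0.1% subtracted. The floor is the mean rate of 419 short-lived genes in cDKO at 540 min. Pooled cDKO rates at 540 min lay below it for Kit and Csf2rb (0.056 and 0.046%) and above it for Csf2ra (0.104%).

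The value of Csf2ra depended on how the curve was read. Its control rates rose from 1.10, 1.31 and 0.85% at 0 min to 1.32, 2.04 and 1.14% at 60 min before they fell, and the fit divides by the 0 min mean. A straight line through the log rates, with its own intercept, gave a log2 ratio of -0.24 in place of -1.81. Without the 540 min libraries the control half-life of Csf2ra ran to the upper bound of 10000 min. The values of Csf2rb moved as well without those libraries, to 271 min in control and 582 min in cDKO, a log2 ratio of 1.10 in place of 0.42.

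AU-rich elements in 3′ UTRs, which recruit decay factors, and sites of let-7, a microRNA family whose precursors TUT4 and TUT7 uridylate, were looked for in the GENCODE canonical transcripts on GRCm39, on the transcribed strand. The nonamer TTATTTATT was present in Csf2ra and in no other member, and 8.37% of 20693 genes have it. The pentamer ATTTA, which lies within that nonamer, was found in Kit, Flt3, Csf2ra, Csf1r, Il6ra and Il7r but not in Csf2rb, Csf3r or Il3ra, and 67.6% of genes have it. The let-7 seed match CTACCTC was found in Csf1r alone, with 9.92% of genes having it. The windows of Csf2ra, Flt3 and Kit, the members of the decay test that hold an element, are shown because their labeled RNA could be followed, with the element in capitals and the rest in lower case, 5′ to 3′. The Csf2ra nonamer starts at base 786 of a UTR of 1047 bases (window GRCm39 chr19:61212637-61212666, minus strand), and the Flt3 pentamer at base 383 of 430 (chr5:147267581-147267610, minus strand). The Kit pentamers start at bases 1302, 1375 and 1444 of 2199 (chr5:75816495-75816524, chr5:75816568-75816597 and chr5:75816637-75816666, plus strand).
Csf2ra: ttattattacTTATTTATTattactattag
Flt3: actttttcatctATTTAgtgatatatttta
Kit, pentamer at 1302: tcactgtctagaATTTActcaaagccgcca
Kit, pentamer at 1375: gagtcctcctgtATTTAacaacactcttat
Kit, pentamer at 1444: ccagggaaacagATTTAaagtgtaccccgt
The authors counted reads in intervals of mm10, and their Csf2ra interval is 602 bases, shorter than this UTR, so the element may lie outside what was counted. The same holds for elements of Csf1r, counted over 659 bases against a UTR of 2983, and of Il6ra, counted over 1837 against 7102. These matches are descriptions of sequence, and their bearing on decay was not tested.

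Among the other genes of these pathways, taken from lists chosen with earlier results of these data known, calls at 0 min are given beside the shares of all genes called then, 6.72% higher and 6.64% lower. Of ligands, 2 of 3 tested genes rose: Tslp (thymic stromal lymphopoietin) by 4.81 ± 1.03 (log2, edgeR, adjusted p 0.0147), from 2.03 ± 0.832 to 58.2 ± 59.0 CPM (SD, n = 3), and Flt3l, the ligand of Flt3, by 0.91 ± 0.25 (adjusted p 0.0459), from 9.19 to 17.0 CPM. Of 15 shared and related receptors, 4 rose and 3 fell. Il2ra, the IL-2 receptor α chain, was almost unread in control (0 to 1.39 CPM over 12 libraries) and had 26.4 to 95.1 CPM in cDKO. Il2rg, the common γ chain, rose by 1.27 ± 0.20 (adjusted p 0.0037), with 85.2, 75.4 and 98.9 CPM in control and 165, 175 and 279 CPM in cDKO. Crlf2 rose by 0.50, and Il17ra and the interferon receptor chain Ifnar2 fell by 0.66 and 0.45.

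Of the signaling genes below the receptors, read against the same shares (13.4% in either direction), none of the 11 JAK and STAT genes passed at 0 min in edgeR. The one nearest the threshold was Stat5a, at 0.63 ± 0.19 (adjusted p 0.0567), which passed at 60 and 540 min (0.81 and 0.61, adjusted p 0.0081 and 0.0267). Others of the 11 fell at the later times: Jak3 at 60 min (20.2% of all genes called), Jak3 and Stat3 at 180 min (18.9%) and Stat3 at 540 min (19.2%). No gene of this list was called higher at 180 min. Of 24 kinase and adaptor genes, 3 rose and 4 fell: the SRC-family kinase Fyn by 2.69 ± 0.42 and the PI3K subunit Pik3cb by 1.40 ± 0.18, against falls of 0.87 for the adaptor Shc1, 0.57 for the kinase Fes and 0.41 for Mapk3. Of 22 negative regulators 2 rose and 3 fell, with the JAK phosphatase Ptpn2 at 0.84 and Socs6 at 1.12, and Ptpn1, Pias3 and Dusp6 at -0.44, -0.89 and -0.91. Of 16 genes known to respond to cytokines 3 rose (Ccnd2, Pim3 and Ccnd3 by 0.48, 0.68 and 0.41) and Dusp6 fell. The list medians were 0.91 for ligands, -0.19 for shared and related receptors, 0.07 for JAK and STAT genes, 0.04 for kinases and adaptors, 0.18 for negative regulators and 0.41 for cytokine targets.

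At the later times the target list had 8 genes higher and 3 lower of 17 tested at 60 min (20.2% of all genes called), 9 and 2 of 15 at 180 min (18.9%) and 3 and 3 of 15 at 540 min (19.2%), and the change with time was not tested.

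**Figure D4:**
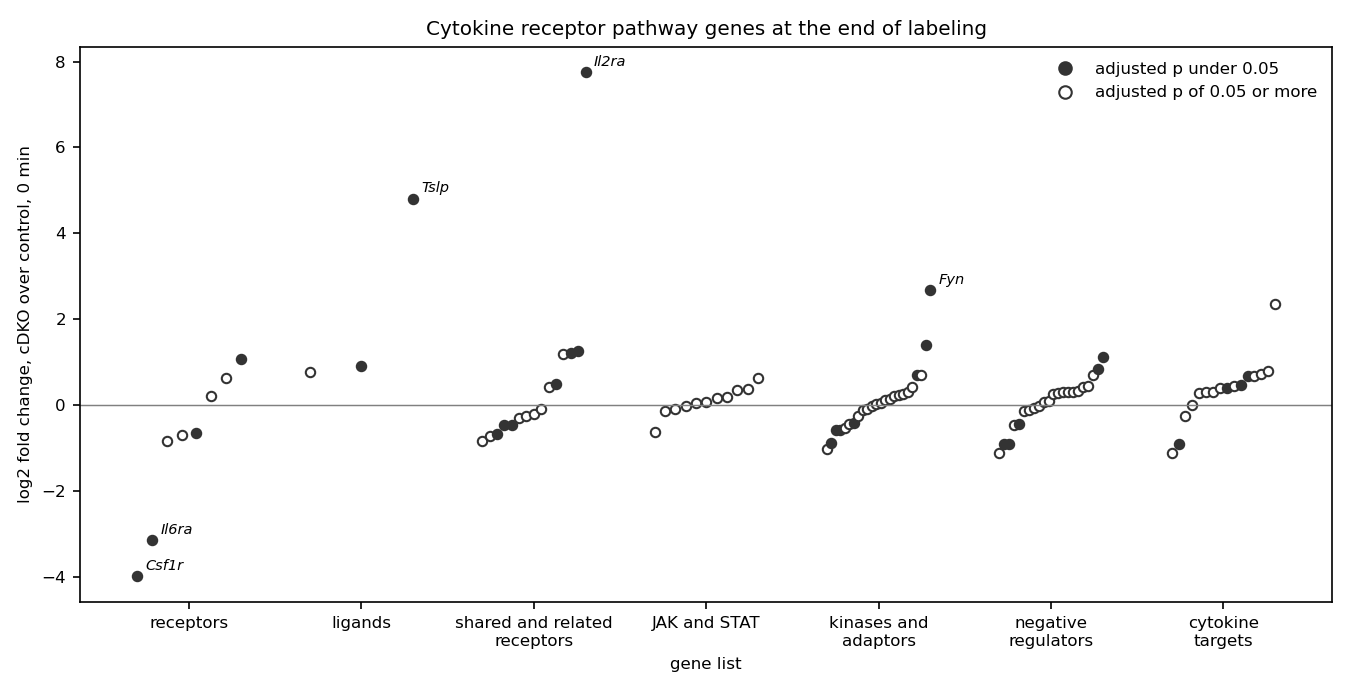
log2 fold change of cDKO over control at 0 min (y axis) for every tested gene of the 7 lists (x axis), ordered by value within a list. Filled points passed an adjusted p of 0.05 in edgeR and open points did not, with names for called genes beyond 2 log2 units in either direction: Csf1r and Il6ra are the lowest points and Il2ra, Tslp and Fyn the highest.

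The receptors were measured in cultures whose differentiation markers also differed, and in bulk RNA fewer cells of a type and less RNA per cell cannot be told apart. Among monocyte and macrophage markers at 0 min, 4 of 8 tested fell, Csf1r itself among them, and 1 rose, where 6.64% of all genes fell and 6.72% rose. F13a1 had 100 to 253 CPM in control and 0 to 0.436 CPM in cDKO, Irf8 119 to 233 against 49.7 to 87.4 CPM, and Adgre1 rose from 14.5 to 35.5 CPM to 174 to 285 CPM. Ly6c2, which had most of the list's reads, overlapped (3547 to 4082 against 3084 to 4499 CPM), and the list's summed level without receptors was 4885 to 5876 CPM in control and 3996 to 4889 CPM in cDKO. Of the neutrophil markers 4 of 7 tested fell and 1 rose, against the same shares, with Csf3r itself among the 7 and not passing. Their summed levels without Csf3r were 110 to 170 against 61.5 to 86.5 CPM. S100a8 fell, at 16.2 to 25.4 against 0 to 1.31 CPM, and Cebpe rose, at 4.51 to 20.0 against 16.5 to 53.4 CPM. Cxcr2 overlapped (2.07 to 13.5 against 2.67 to 11.2 CPM). The part of these marker shifts in the lower Csf1r, Csf3r and Il6ra was not tested.

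Of the mast cell and basophil markers, 3 of 6 tested genes were higher at 0 min (6.72% of all genes), with summed levels without Kit of 16.7 to 35.2 CPM in control and 147 to 323 CPM in cDKO. The 3 were Cpa3 (47.3 to 80.8 CPM against 0), Gata2 and Hdc. Mcpt8 (6.26 to 18.8 CPM in control and 6.30 to 16.5 CPM in cDKO) and Ms4a2 (3.41 to 11.3 and 3.27 to 10.2 CPM) overlapped, and Kit had lower means in cDKO, as above. Fcer1a, Tpsb2, Cma1 and Mcpt4, which define mature cells of these types, had no read in any library. The erythroid list summed to 5.07 to 14.7 and 1391 to 2274 CPM, nearly all from the β-globin gene Hbb-bt, and Alas2, Epor, Slc4a1 and Car1 had no read in either genotype. Progenitor markers at 0 min, against the same shares of all genes, had 2 of 11 tested genes higher (Cd33 and Hoxa9) and 3 lower (Elane, Prtn3 and Spi1). Their sums were 7341 to 8480 CPM in control and 4745 to 7574 CPM in cDKO. Hoxa9, also a transduced oncogene, was a large part of them, at 1946 to 2801 CPM in control and 3377 to 6543 CPM in cDKO. Prtn3 (2616 to 3015 against 327 to 902 CPM), Elane (1213 to 1570 against 13.8 to 169 CPM) and Mpo (472 to 764 against 0.712 to 220 CPM) did not overlap. Mpo was not among the genes called at 0 min, and Cd34 and Cebpa overlapped. Megakaryocyte markers summed to 2.59 to 9.87 and 7.32 to 23.7 CPM. Whether these shifts bear on Csf2rb, Il2rg or Il3ra was not tested.

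The genes whose pattern over the 24 libraries was most like that of each receptor, by Pearson r of log2(CPM + 1) among genes with a mean of at least 5 CPM, give a description of the same shifts. Libraries of a genotype share its cells, so each r also holds the genotype difference. Il6ra ran closest to the granule protease genes Prtn3 (r = 0.989) and Elane (r = 0.979), with r = 0.884 and 0.829 around the genotype means. In the cDKO cultures Prtn3 had means of 836, 634 and 339 CPM and Elane 154, 32.9 and 14.6 CPM in replicates 1, 2 and 3, the same order as Il6ra. Csf2rb ran closest to Msi2 and Asrgl1 (r = 0.974 and 0.971), Csf1r to Wfdc21 and Tcf4 (r = 0.977 and 0.976), Csf2ra to Igsf6 and Jade1 (r = 0.902 and 0.900) and Flt3 to Ncoa4 and Gas7 (r = 0.903 and 0.891). Around the genotype means these were 0.894 and 0.881 for Csf2rb, 0.526 and 0.56 for Csf1r, 0.773 and 0.779 for Csf2ra and 0.903 and 0.893 for Flt3. Kit, Il3ra and Csf3r had weaker nearest genes, Tnfrsf1b and Capza1 (r = 0.872 and 0.869), Flt3l and Slc26a6 (r = 0.863 and 0.860) and Acot13 and Mroh1 (r = 0.833 and 0.82).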

How the data were processed

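SLAM-seq libraries of 24 samples (3′ QuantSeq, 85-base single-end reads by the study's methods) were analysed from per-library tables. The authors mapped reads to GRCm38 (mm10) and counted T-to-C conversions in 3′ UTR intervals with SlamDunk v0.4.3. The deposited tables give read counts, CPM and the conversion rate as a fraction per interval, with thymine coverage and conversions. Of 39419 lines, 99.18% were matched by accession to a gene symbol, repeated and overlapping intervals of a gene were reduced to the longest, and reads were summed over 20867 genes. CPM were recomputed on the total of UTR reads, where the authors' CPM use all filtered reads. No gene is normalized to an external standard, so all values are relative to the library.

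Genotypes were compared at each time by edgeR's quasi-likelihood test (version 4.0.16, TMM, filterByExpr, Benjamini-Hochberg, 6 libraries per fit), and 540 with 0 min within each genotype likewise. SE are the change divided by the square root of the test's F. Decay used conversions with a log coverage offset (at least 100 covered thymines in each library and 50 conversions in all), and half-lives a single exponential on rates divided by the genotype's 0 min mean (SD of the divided rates under 0.3 at 0 min). DESeq2 (version 1.42.0), library-size scaling, TMM without chromosome 3, no filter, all intervals, no multimapping reads, replicate blocks and omitted replicates were alternatives. The fits were tested on simulated data.

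Named genes were the receptors, Tut4, Tut7, Csf2rb2, Il6st, Il2rg, up to 5 called genes of each list at 0 min by smallest adjusted p (or the nearest to the threshold), and the 2 genes most like each receptor, with marker genes beside them; other list members were named after their values were seen. The members and lists were chosen with earlier results of these data known. Replicate numbers did not pair control with cDKO (same-number r of -0.0634 to 0.110 over 12 pairs), but libraries of the same number deviated together within cDKO. PCR duplicates were not marked, and 9.01 to 10.5% of reads mapped to several places.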

Additional observations from a re-analysis of the deposited data

How the results depend on the processing

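Across the alternatives, Csf1r and Il6ra stayed lower and past the threshold at all 4 times, and Csf2rb stayed higher, losing the call only at 540 min without control replicate 1 (adjusted p 0.0567). The number of receptors called ranged from 3 to 5 at 0 min, 3 to 6 at 60 min, 5 to 7 at 180 min and 3 to 5 at 540 min when 1 replicate was left out. With counts summed over the chase, chosen after the data were seen, it was 7, when 3433 of 11204 genes passed, and with all 24 libraries in 1 fit 2292 genes passed at 0 min in place of 1360. Flt3 reversed at 180 min without cDKO replicate 3, to -0.92 (adjusted p 0.0194), from 0.17, and ranged up to 0.56 with another replicate left out. With the replicate block (a paired fit by number), 5, 3, 5 and 4 receptors passed at the 4 times; Kit passed at 0 min (adjusted p 0.0422), and Il3ra at 60 min and Csf3r at 180 min did not (adjusted p 0.0656 and 0.0641). The control chase change called 1 receptor in place of 2 with DESeq2, with library-size scaling, without the low-count filter and with the replicate block, and 1 to 2 when 1 library was left out, Flt3 each time. The cDKO chase change called 1 receptor, Flt3, with the replicate block, when 128 genes passed in place of 12, and DESeq2 called 123 genes and no receptor. The decay term called no receptor in any alternative, while the number of genes called went from 12 to 207 with DESeq2, 59 with the replicate block, 23 with the library-wide rate in the offset, 4 with the floor subtracted and 1 without the 540 min libraries. A longer half-life in cDKO was seen for 1 of 3 receptors, where 68.6% of the 3712 genes that passed had one with no floor subtracted, and for 4 of 6 without the SD filter. It was seen for 0 without cDKO replicate 1, where only Kit and Csf2ra passed the filters. Without cDKO replicate 2, where Flt3 passed as well, it was seen for 2, and without any other replicate for 1. Labeling relative to the library at 0 min was lower in cDKO for 2 of 8 receptors, and for 1 of 4 with a coverage of at least 1000, chosen after the data were seen. The labeling counts are a description, with no test and no share over all genes beside them. The cause of these changes was not tested. Depth limits Il3ra, Csf3r, Il6st and, in cDKO, Csf1r and Il6ra, whose decay could not be measured.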
